A study of Mus musculus with 8 samples.

Results

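The regions described here are introns that carried many reads from the strand opposite to the one on which they were annotated. They are the rows of the antisense introns table with a mean of at least 50 reads over the 8 libraries, and 1848 of 82049 rows met that condition. Because introns of alternative transcripts overlap, the 1848 introns form 1471 loci, of which 1226 hold a single intron. The condition uses the mean level over all libraries, so the level itself is a description and carries no test, while differences between libraries were not used to choose the introns. RNA came from C57/BL6 mice, from the suprachiasmatic nucleus (SCN), and the animals were held in constant darkness after a light-dark cycle, with no other treatment, and neither age nor sex is given in the labels. Each library pooled equal amounts of RNA from 3 mice, and 1 library was made every 6 h for 2 days. Circadian times CT4, CT10, CT16 and CT22 therefore have 2 libraries each, taken 24 h apart, and the labels state that there are no replicates, so p-values measure the spread between pooled libraries. The library of hour 34 (CT10, first cycle) is given apart from the other 7 throughout, and its partner at the same circadian time is that of hour 58. The column header of hour 34 alone carries an added letter E, and what it stands for is not known here.

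The SCN is the hypothalamic nucleus that sets the daily rhythm of the body, and its neurons keep time through a loop in which the activators CLOCK and BMAL1 drive genes whose products later repress them. Reads antisense to an intron can come from RNA made from the other strand. That can be the messenger RNA of a gene nested in the intron, the tail of a neighbouring gene that runs into it, or a noncoding antisense transcript. In a library that keeps strand and selects polyadenylated RNA, such reads stand beside the unspliced RNA of the host gene itself. In bulk tissue, fewer cells of a type and less RNA per cell cannot be told apart.

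Where a gene starts inside an intron, its promoter lies there too. A few such promoters are printed because of what their introns showed: Ciart, the clock gene listed as Gm129, starts inside the intron with the clearest change over the day, Nap1l5 inside the intron with the highest level, and Nnat inside an intron that was highest at hour 34. Nap1l5 and Nnat lie on the strand opposite to their host, while the host strand of the intron around Ciart is not known. Sequences are RefSeq windows on GRCm38.p6 from 250 bases before to 50 after the gene start, 5′ to 3′ on the gene's strand, and capitals mark CACGTG, the E-box bound by CLOCK and BMAL1.
Ciart: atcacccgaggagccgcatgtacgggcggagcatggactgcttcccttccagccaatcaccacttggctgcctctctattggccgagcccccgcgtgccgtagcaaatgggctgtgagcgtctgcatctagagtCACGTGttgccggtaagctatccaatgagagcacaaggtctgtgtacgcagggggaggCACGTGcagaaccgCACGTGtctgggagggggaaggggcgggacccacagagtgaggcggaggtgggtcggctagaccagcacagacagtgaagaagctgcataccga
Nap1l5: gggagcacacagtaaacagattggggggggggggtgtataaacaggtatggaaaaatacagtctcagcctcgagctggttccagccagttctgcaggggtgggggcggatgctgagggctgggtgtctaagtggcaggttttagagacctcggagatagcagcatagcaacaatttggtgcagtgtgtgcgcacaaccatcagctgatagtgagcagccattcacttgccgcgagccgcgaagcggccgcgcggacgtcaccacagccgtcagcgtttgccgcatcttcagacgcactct
Nnat: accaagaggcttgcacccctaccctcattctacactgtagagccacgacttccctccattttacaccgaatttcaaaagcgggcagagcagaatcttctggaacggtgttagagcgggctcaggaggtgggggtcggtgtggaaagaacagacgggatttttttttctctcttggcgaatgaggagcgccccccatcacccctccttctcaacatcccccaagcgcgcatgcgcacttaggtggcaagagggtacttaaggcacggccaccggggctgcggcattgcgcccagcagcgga
The Ciart window, chr3:95882179-95882478 on the minus strand of GRCm38.p6, held CACGTG 3 times, at bases 135, 193 and 207 counted from its 5′ end. The motif is its own reverse complement, so both strands are covered by a single search. Of all 32851 promoter windows of this length, 7.15% held it at least once and 29 held it 3 or more times. The Nap1l5 and Nnat windows held none, and each had 17 CG pairs, against 19 in that of Ciart and a median of 7 over all windows. These are matches of letters and were not tested as sites.

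Antisense reads of these introns made up most of what the table holds. Column totals lay between 905329 and 905556 reads in every library, because depth had been equalised before deposit, and the selected introns took 79.1% to 84.5% of them. Hour 34 had the highest share, 84.5%, and hour 40 the next, 83.1%. Mean levels per intron ran from 50 to 26161 reads with a median of 136, and 148 introns had at least 1000. The 10 highest loci alone held 15.7% of the reads summed over all selected introns. Between libraries a typical intron varied little: the median coefficient of variation over the 8 libraries was 17.3%.

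Host genes were found by name, and strand was known for 1434 of the 1848 introns. The other 414 bear names without a known strand, mostly clone accessions, and 406 of them overlap a gene of another name. Among the 1434, 958 introns (66.8%) overlapped by at least 1 base a gene on the opposite strand in the genes table. Among the other tested introns of known strand, which had lower means, 1608 of 5798 (27.7%) did so. Counted once per locus, 757 of 1124 loci of known strand (67.3%) lay over such a gene. The opposite gene with the most reads was protein-coding at 589 of the 757 loci (77.8%) and carried the annotation antisense at 121. Requiring at least 50% of the intron to be covered brought the share to 45.1%. Names and strands were not always safe to combine: in 301 introns an exon row of the same name lay over the intron and held over 2 times its sense reads, a condition set after the values were seen. Without them the share was 68.5%.

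A whole opposite-strand gene inside the intron gave nearly the same read number as the intron. At 82 loci a single opposite-strand gene with a mean of at least 10 reads lay entirely inside, and the ratio of the intron's antisense reads to that gene's sense reads had a median of 1.14, with quartiles of 0.987 and 1.39. At 49 of these 82 loci the ratio was between 0.8 and 1.2. Spearman's rho between both means was 0.97 over the 82 loci. The points share libraries and many of the same reads, so this is a description of counting. At another 491 loci only part of a single opposite gene lay inside, and the ratio had a median of 0.424. Only the end of the gene was inside at 241 of these loci, only its start at 34, and neither at 216.

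**Figure D1:**
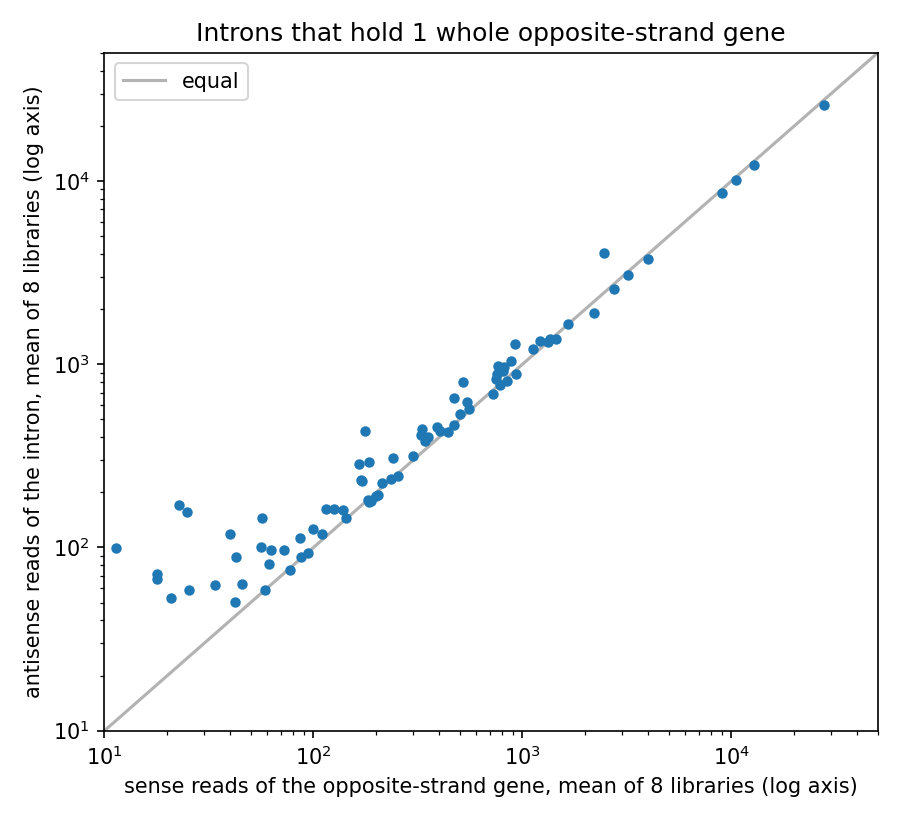
Mean antisense reads of the intron (vertical, log axis) against mean sense reads of the opposite-strand gene (horizontal, log axis) at the 82 loci that hold 1 whole opposite-strand gene. Each point is a locus, and most lie on or just above the grey line of equal values, down to genes with few reads, where introns held more than the gene.

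The highest intron of all belonged to Herc3, which encodes a HECT-domain ubiquitin ligase, at chr6:58844619-58866405 (mm9). Its antisense reads from hour 22 to hour 64 were 25961, 27724, 23929, 27531, 23740, 27457, 26858 and 26090. Hours 34 and 46 were the lowest of a narrow range. Inside lies Nap1l5, an imprinted intronless gene of the nucleosome assembly protein family, with a mean of 27643 sense reads, so the intron held 0.946 reads for each read of the gene. An exon row named Herc3 also lies over this intron, 1 of the 301 cases above. Sense reads of the Herc3 intron averaged 619.

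Next came an intron of Igsf8, an immunoglobulin superfamily membrane protein, whose antisense reads were 14896, 11119, 19161, 13704, 15676, 13841, 15779 and 13039 from hour 22 to hour 64. Hour 34 was the highest library and hour 28 the lowest, and both libraries of CT10 were above the others. The summed sense reads of 6 astrocyte markers were also highest at hour 34, 40596 against 30761 to 38371, and their part in the result was not tested. The intron did not pass the 24-h test (edgeR, adjusted p = 0.843).

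Nt5dc1 at chr10:34008369-34030106 holds Tspyl4, a relative of the testis-specific Y-encoded protein family, and had 12275 antisense reads at hour 34 and 10067 to 13372 in the other libraries. Mcart6, a mitochondrial carrier on the X chromosome, holds Zcchc18 and had 9034 at hour 34 and 7597 to 9559 otherwise. In both, hour 34 lay inside the range of the rest. Slc3a1, an amino acid transporter subunit, lies at the end of Prepl, and its intron at chr17:85460260-85462975 averaged 4395 antisense reads against 12.5 sense reads. That ratio, 352, was the highest among introns with at least 10 sense reads.

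Copg2, a subunit of the coat of transport vesicles, had 10299 antisense reads at hour 34 and 9199 to 12457 in the others, in the intron at chr6:30700636-30759558. No gene of the genes table lies on its other strand. The imprinted gene Mest ends 2039 bases before the intron on that strand, and a transcript named AF217545 has an exon inside. A pair of the 10 highest loci are defined by very long introns: Galnt2 spans 4384418 bases with 35 opposite-strand genes and Ctbp2 spans 2956986 bases with 16. Their means of 13509 and 10283 antisense reads are sums over many genes. Antisense reads were fewer than sense reads in Galnt2, 0.402 for each sense read.

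**Figure D2:**
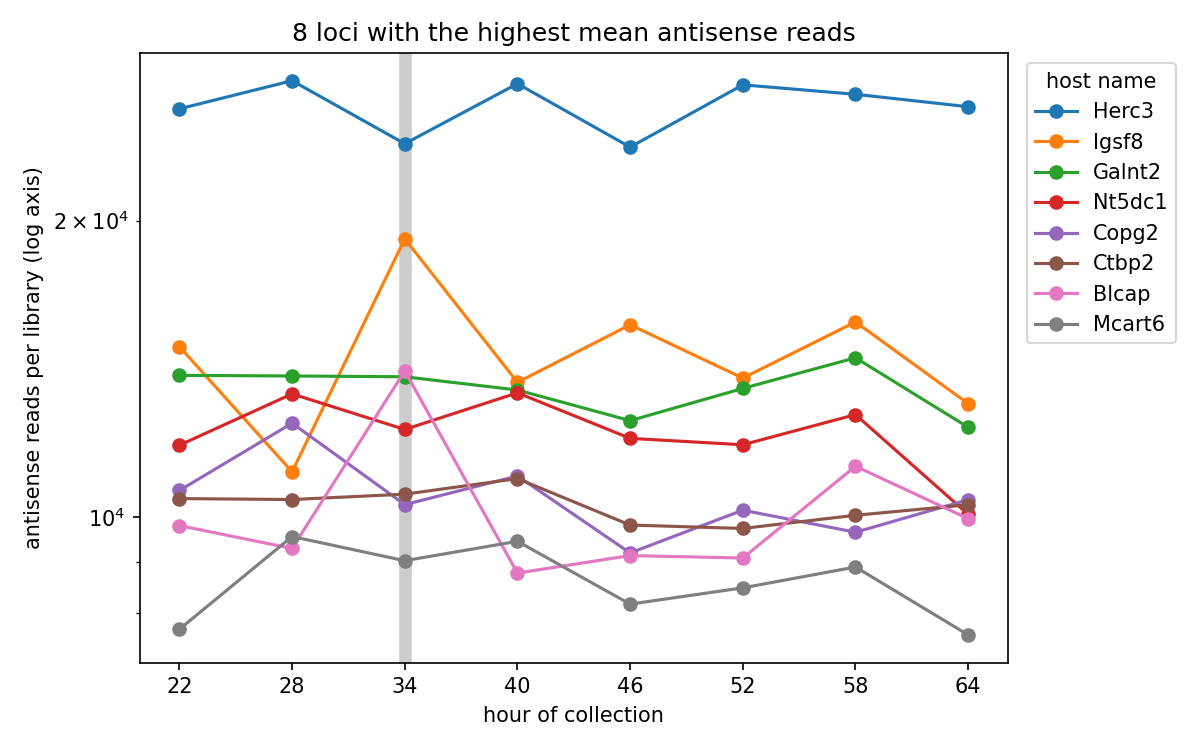
Antisense reads per library (vertical, log axis) by hour of collection for the 8 loci with the highest means, 1 line per host name, with hour 34 shaded. Igsf8 and Blcap are highest at hour 34, and in the other 6 lines hour 34 lies inside the range of the rest.

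Blcap shows the clearest excess at hour 34 among these. Its intron at chr2:157384064-157391955 encloses the imprinted gene Nnat, which encodes neuronatin, and held 9807, 9296, 14075, 8777, 9143, 9091, 11264 and 9967 antisense reads from hour 22 to hour 64. Both CT10 libraries were above all others, hour 34 by the most, 1.51 times the median of the other 7. Nnat had 13563 sense reads at hour 34 and 8659 to 11668 in the rest. The 24-h term gave a log2 peak-to-trough difference of 0.41 ± 0.13 (SE, n = 8 libraries) that did not pass adjustment (edgeR, adjusted p = 0.537), and 0.19 without hour 34.

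Introns with no opposite-strand gene numbered 476. Genes without a known strand were not counted as opposite, so such a gene can still lie over these introns. In 201 of them a gene on that strand with a mean of at least 10 reads ended within 10 kb upstream of the intron, in 117 an exon row of the intron's own name held over 2 times its sense reads, and in 71 an exon row of another name lay inside. These conditions overlap. In 50 introns antisense reads were under 10% of sense reads. None of these 4 held for 119 introns.

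Antisense reads outnumbered sense reads of the same intron in 1589 of the 1848 introns. Among the 963 introns with a sense mean of at least 10, the median ratio was 3.20. After Slc3a1, the highest ratios were at Cxx1c on the X chromosome (180), the introns named BC048666 and AK049168 (both 139) and Igsf8 (138). BC048666 overlaps St8sia3, a sialyltransferase of brain. Cxx1c is 1 of the introns whose name is in doubt, and the opposite gene over it, Gm14597, had a mean of 0.25 reads.

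Among the selected introns, hour 34 was the highest library more often than any other. Over all 1848 introns the ratio of hour 34 to the median of the other 7 libraries had a median of 1.06, with quartiles of 0.917 and 1.21. It was the highest of the 8 libraries in 358 introns (19.4%) and the lowest in 184 (9.96%), while the other libraries were highest in 7.63% to 15.2% and lowest in 8.55% to 14.9%. The 6456 other tested introns had a median ratio of 0.882, with hour 34 lowest in 17.9% and highest in 8.10%. Column totals were equal, so the larger share of the selected introns at hour 34 left fewer reads for all others together. The lower values of the others are thus not a separate result. By class of the selected introns, the median ratio was 1.08 over an opposite-strand gene and 0.988 without one. At the 70 loci with a whole opposite gene of at least 50 reads inside, the ratio of the intron followed that of the gene, with a Spearman's rho of 0.88 across loci that share the same libraries. Both are read from partly the same fragments.

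The low values at hour 34 were concentrated where antisense reads were a small part of sense reads, a division made after the values were seen. Of the 26 loci under 10% with no opposite-strand gene, 24 had their lowest value at hour 34, and the median ratio was 0.112. With loci of unknown strand added and Meg3 left out, 30 loci summed to 653 antisense reads at hour 34 and to 2248 to 3543 in the other 7 libraries, which do not overlap. Sense reads of the same 30 introns summed to 132869 at hour 34 and lay between 129468 and 149004 in the others. The 21 introns under 10% that did lie over an opposite gene had a median ratio of 0.931, and 5 of them were lowest at hour 34. Counted likewise by intron, the 50 without an opposite gene had a median of 0.166, with 31 lowest at hour 34. A group of 17 overlapping introns of the gamma protocadherin cluster, cell adhesion genes that share their last exons, stayed level at a median of 1.07. Depth had been equalised in each table before deposit, and the part of that step was not tested. Whether the antisense reads of the introns under 10% came from RNA of the opposite strand was not tested either.

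Sfrs18, Gpi1 and Ddx5 had the lowest ratios. Sfrs18, a splicing regulatory protein, had 204, 95, 6, 97, 155, 123, 116 and 223 antisense reads from hour 22 to hour 64 in its longer intron, at chr4:21798756-21802059, beside a mean of 2267 sense reads. Gpi1, the glycolytic glucose-6-phosphate isomerase, had 124, 61, 3, 43, 75, 82, 47 and 98. Ddx5, an RNA helicase of splicing, had 168, 86, 7, 139, 152, 86, 112 and 185 beside a mean of 6629 sense reads. In all 3 the value at hour 34 was a small part of the next lowest.

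**Figure D3:**
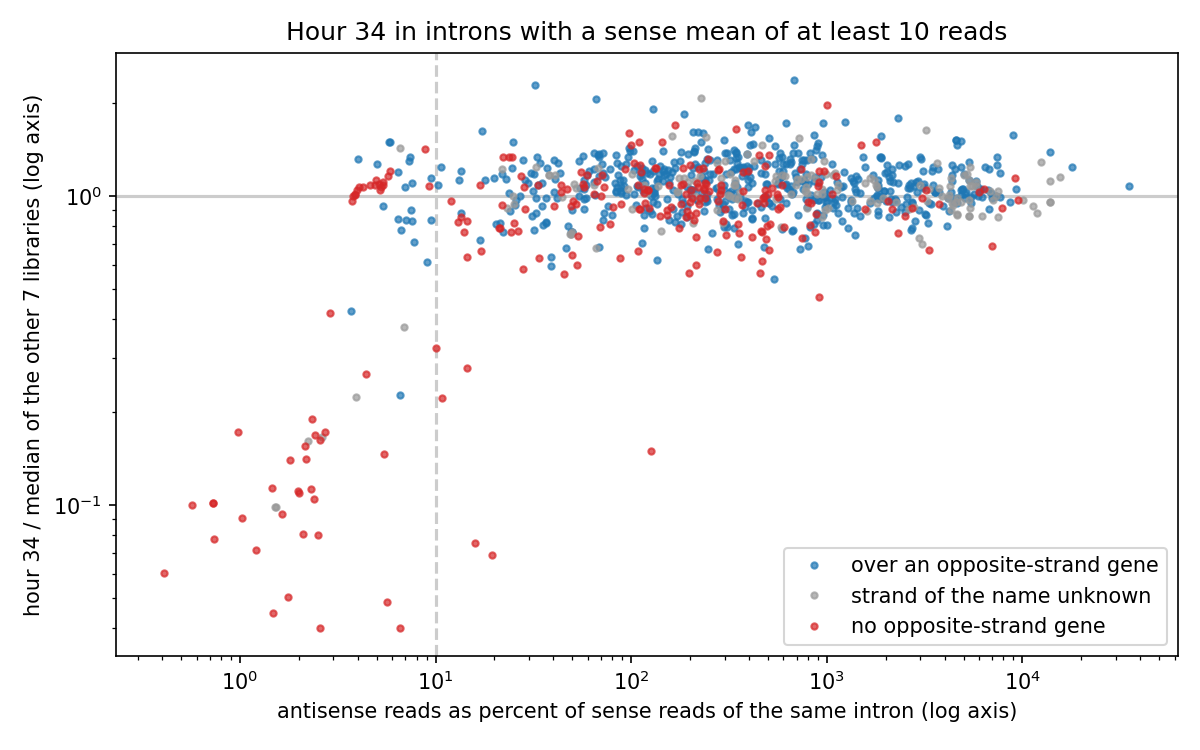
Ratio of hour 34 to the median of the other 7 libraries (vertical, log axis) against antisense reads as percent of sense reads (horizontal, log axis) for the 963 introns with a sense mean of at least 10, coloured by overlap with an opposite-strand gene. Nearly all points far below 1 are introns without an opposite gene or of unknown strand and lie left of, or just past, the dashed line at 10%.

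Other introns of the same kind, named after their values were seen, included Hspa8, a constitutive chaperone, with 10 antisense reads at hour 34 and 92 to 172 in the other 7. Hnrnpa2b1, an RNA-binding protein, had 16 against 128 to 220 in its intron at chr6:51411433-51413409. These are introns whose own strand was heavily read: 16002 mean sense reads in Hspa8 and 6325 in Hnrnpa2b1. Summed sense reads of 12 oligodendrocyte markers were 172488 at hour 34 and 56968 to 178726 in the other 7, so hour 34 lay inside the range of the rest. Those of 7 arcuate markers were 1219 at hour 34 and 231 to 552 in the others, above all of them, and their part in the low values was not tested.

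The highest ratios at hour 34 were found in introns with means near the limit of 50 reads. AK046349, which overlaps Cd9, a tetraspanin of myelinating cells among others, had 65, 32, 123, 31, 58, 40, 51 and 116 antisense reads from hour 22 to hour 64. Hours 34 and 64 stood above the rest there, and those are the libraries with the most oligodendrocyte marker reads, 172488 and 178726. Whether that plays a part was not tested. Ralgps1, whose intron holds Angptl2, a secreted angiopoietin-like protein, had 175 reads at hour 34, 178 at hour 58 and 47 to 80 in the other 6, so both CT10 libraries were high. Fam89a had 90 at hour 34 and 94 at hour 28, with 34 to 67 elsewhere. Tcp1, a chaperonin subunit whose intron overlaps the ribosomal protein gene Mrpl18, had 98 at hour 34, 89 at hour 64 and 28 to 68 elsewhere. A short intron of Kcnip1 had the single highest ratio, 2.52, with 121 reads against 15 to 103, while the overlapping Kcnip1 intron of higher mean had 144 against 87 to 183.

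Over circadian time, few introns passed the test. The model asks for a 24-h wave of any phase with edgeR's quasi-likelihood test over 8304 introns, all 1848 selected ones included. Of all tested introns 2 passed at an adjusted p of 0.05, which is 0.0241%, and 1 of them was a selected intron. At an unadjusted p under 0.05 there were 240 selected introns (13.0%), in 188 loci, against 7.98% of all introns tested. The day-night term sets the CT4 and CT10 libraries against the rest. It passed for 2 selected introns, 1 higher by day and 1 higher by night, against 0.0361% of all tested. Its unadjusted p was under 0.05 in 192 selected introns (10.4%) and in 8.29% of all tested. The dusk-dawn term sets the CT10 and CT16 libraries against the rest. It passed for 0 with edgeR, where 0% of all tested passed, and for 11 by DESeq2 (1.91% of the 577 introns to which it gave an adjusted p), with 194 (10.5%) at an unadjusted p under 0.05 in edgeR against 6.43% of all tested. Without hour 34, 189 selected introns had an unadjusted p under 0.05 for the 24-h term (10.2%), against 6.64% of all tested, and 164 of them were among the 240.

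The intron that passed the 24-h test bears the clone name AK044447 and lies at chr3:95675609-95690713. Its antisense reads were 128, 232, 333, 160, 123, 210, 321 and 144 from hour 22 to hour 64, or 221 ± 15.6 at CT4, 327 ± 8.49 at CT10, 152 ± 11.3 at CT16 and 126 ± 3.54 at CT22 (mean ± SD, n = 2). Every day library was above every night library, and both cycles had their highest value at CT10. The log2 peak-to-trough difference was 1.47 ± 0.20 (SE), a 2.78-fold range, with a fitted peak at CT8.60 ± 0.53 h (edgeR, adjusted p = 0.0074). The day-night term was 0.95 ± 0.14 on the log2 scale (edgeR, adjusted p = 0.00731). The 24-h call was lost when 1 of 4 libraries was left out: the adjusted p was 0.0567 without hour 22, 0.0555 without hour 34, 0.066 without hour 46 and 0.181 without hour 58 (edgeR). The day-night call was lost without hour 58 or 64, at adjusted p of 0.0704 and 0.0898 (edgeR). The day-night difference itself was 0.89 or more on the log2 scale whichever library was left out.

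Inside this intron lies the whole of Gm129 (Ciart), a repressor of the clock loop that acts on CLOCK and BMAL1, at chr3:95682362-95686230 on the minus strand. Its promoter is the first of those printed above. Gm129 had 90, 146, 237, 97, 81, 166, 232 and 99 sense reads over the same hours, and passed its own 24-h test with a log2 peak-to-trough difference of 1.60 and a peak at CT8.39 (edgeR over genes, adjusted p = 0.0156). Gene and intron had the same order of circadian times, CT10 first and CT22 last. The intron held 1.44 reads for each read of the gene. The strand of AK044447 is not known from the files, so annotation did not decide whether Gm129 is on its opposite strand. The mean of Gm129, 143.5 sense reads, was below the intron's 206 antisense reads and above its sense reads. By reads alone, Gm129 is thus on the side counted as antisense. Sense reads of the intron averaged 91.0 and did not pass (edgeR over sense introns, adjusted p = 0.812).

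Kcnj10 was the intron higher by night. It encodes an inwardly rectifying potassium channel of astrocytes and oligodendrocytes, and its intron at chr1:174271583-174299051 had 100, 21, 27, 60, 55, 26, 18 and 93 antisense reads from hour 22 to hour 64. All 4 night libraries, 55 to 100, were above all 4 day libraries, 18 to 27. The day-night difference was -1.75 ± 0.28 on the log2 scale, day over night 0.298 (edgeR, adjusted p = 0.0128), while the 24-h term missed at an adjusted p of 0.0605 and passed without hour 34 at 0.0432 (edgeR). The day-night call was lost without hour 22, 28, 52, 58 or 64, at adjusted p of 0.168, 0.107, 0.0577, 0.11 and 0.148 (edgeR). Its size in those 5 fits was -1.56, -1.69, -1.82, -1.64 and -1.61 on the log2 scale. No gene of the genes table lies on the other strand here. With a mean of exactly 50 reads this intron is among those just inside the limit.

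**Figure D4:**
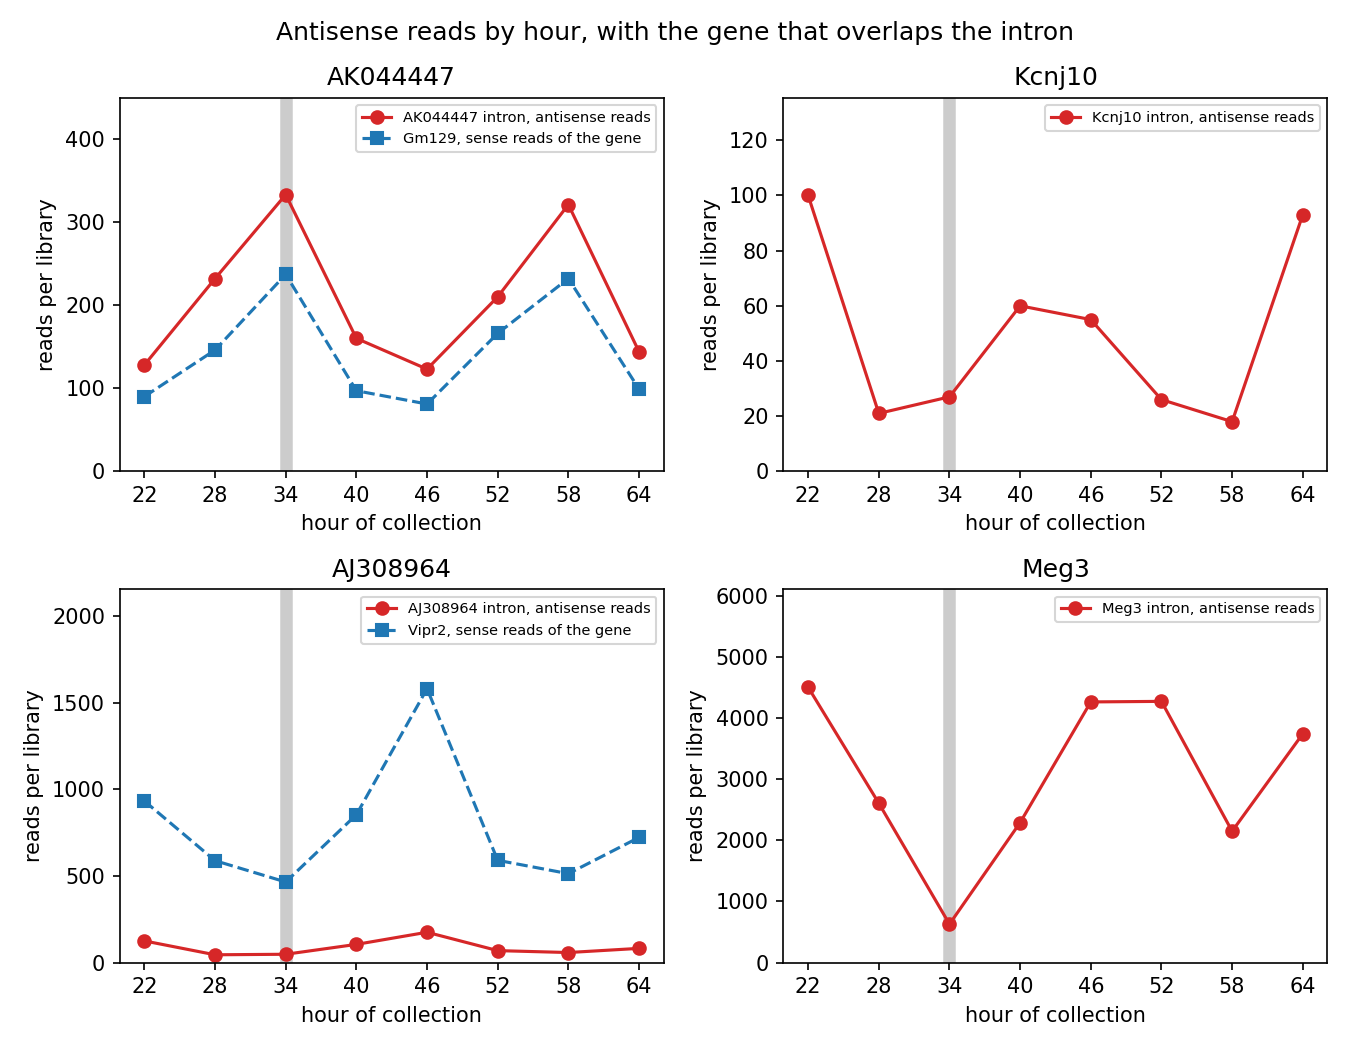
Reads per library (vertical) by hour of collection for 4 introns (red, antisense reads) with the sense reads of the overlapping gene in blue where 1 is discussed, and hour 34 shaded. AK044447 and Gm129 peak together at hours 34 and 58, Kcnj10 is low at the 4 day hours, and Meg3 has its lowest value at hour 34.

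Introns over genes with a 24-h change in their own sense reads were read alongside them. Of 17 genes that passed the 24-h test (edgeR, adjusted p under 0.05 over 15217 genes), 5 overlap a selected intron of another name: Nr1d1, Vipr2, Gm129, Sfpq and B3gat2. Vipr2, the receptor through which SCN neurons respond to vasoactive intestinal peptide, overlaps the intron AJ308964 at chr12:117348962-117376877. That intron had 125, 45, 48, 105, 175, 69, 58 and 82 antisense reads, all 4 day libraries below all 4 night ones. Its fitted peak was CT20.4 and that of Vipr2 CT20.9, but the intron did not pass (edgeR, adjusted p = 0.144).

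B3gat2, a glucuronyltransferase of brain, covers an intron of Smap1 at chr1:23853403-23855102 with 509, 533, 401, 436, 778, 601, 386 and 417 antisense reads. Hour 46 was the highest and hour 58 the lowest. The fitted peaks were CT23.9 for the intron and CT23.2 for the gene, and the intron missed the threshold (edgeR, adjusted p = 0.246). Nr1d1, the nuclear receptor REV-ERBα, peaked at CT4.89 as a gene, while the Thra intron over its end had a mean of only 73.4 antisense reads and a value of 78 at hour 34, inside the range of 53 to 91 in the rest (edgeR, adjusted p = 0.856). Sfpq, a splicing factor, overlaps AK031234, whose antisense reads averaged 59.5 and gave an adjusted p of 0.9 (edgeR).

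DESeq2 called 19 selected introns in 15 loci for the 24-h term, the AK044447 intron among them. It called 23 introns in the whole table, which is 0.98% of the 2348 to which it gave an adjusted p. The introns named here were chosen after their values were seen. AK143784 over Txnip, an inhibitor of thioredoxin that responds to glucose, had 337, 277, 612, 444, 358, 317, 535 and 465 antisense reads. Both CT10 libraries were highest and both CT4 libraries lowest (DESeq2, adjusted p = 0.00292; edgeR, adjusted p = 0.146). Fam92a, over Rbm12b, had 499, 256, 347, 478, 399, 313, 315 and 539, with every night library above every day library (DESeq2, adjusted p = 0.00209; edgeR, adjusted p = 0.131). Galnt5 over Ermn, a cytoskeletal protein of myelin sheaths, had 200, 94, 263, 238, 247, 174, 184 and 426, highest at hour 64 and lowest at hour 28. Those are also the libraries with the most and the fewest oligodendrocyte marker reads, 178726 and 56968. Ermn is itself among the 12 markers summed there. The part of these markers in this result was not tested.

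Clock genes were few among hosts and opposite genes. Of 20 clock genes sought, 5 introns in 4 loci had 1 as host or on the opposite strand, namely Cry2, Nr1d1 and Thra over Nr1d1. Of these 5 introns, 0 passed the 24-h test (edgeR), against 0.0241% of all introns tested. At an unadjusted p under 0.05 there were 0, against 7.98% of all introns tested. AK044447 is not counted there because its strand is unknown. The Nr1d1 intron at chr11:98629734-98630362 lies inside Thra, a thyroid hormone receptor gene, and had 759 antisense reads at hour 34 and 571 to 960 in the other 7. Cry2, a repressor of the clock, had an intron with 317 antisense reads at hour 34 and 239 to 353 otherwise. The Cry2 introns are among those whose name is in doubt, and the opposite gene over them, D930015M05Rik, had a mean of 0.625 reads. In the Nr1d1 and Cry2 introns, hour 34 lay inside the range of the rest.

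Long noncoding RNAs of brain gave 10 introns in 6 loci, with Meg3, Rian, Nespas and Dlx6os1 as hosts, and 0 passed the 24-h test (edgeR). Those at an unadjusted p under 0.05 numbered 4, against 7.98% of all introns tested, and all 4 were Meg3 introns, which overlap one another in 2 groups. Meg3, a maternally expressed noncoding RNA, had the largest such intron, at chr12:110796531-110809600, with 4504, 2607, 629, 2290, 4264, 4273, 2149 and 3742 antisense reads beside a mean of 126051 sense reads. Hour 34 was the lowest by far, 0.168 times the median of the others, and both CT22 libraries were among the highest 3. The fitted peak was CT22.4 with a log2 peak-to-trough difference of 1.67 ± 0.35, and 1.02 without hour 34 (edgeR, adjusted p = 0.246 and 0.0742). Rian, a neighbouring noncoding RNA, had 14 antisense reads at hour 34 and 75 to 106 otherwise. Dlx6os1, transcribed against the homeobox gene Dlx6, had 435 at hour 34 and 408 to 495 otherwise.

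Imprinted genes gave 20 introns in 11 loci, with 0 past the 24-h test (edgeR) and 9 at an unadjusted p under 0.05, against 7.98% of all introns tested. Overlapping introns of 1 locus share their reads, so the 20 are not independent. Commd1, whose intron encloses the imprinted gene Zrsr1, had 1651 antisense reads at hour 34 and 1115 to 1563 in the others, and 4 other selected introns overlap it. All 5 introns of that locus had an unadjusted p under 0.05 (edgeR) and are among the 9. Ube3a, a ubiquitin ligase silenced on the paternal allele of neurons by an antisense transcript, had 1079, 800, 1026, 453, 452, 523, 438 and 635 in its intron at chr7:66502588-66527316. The first 3 hours were higher than the last 5, so the 2 libraries of CT22, CT4 and CT10 differed by the cycle (edgeR 24-h term, adjusted p = 0.943). The larger Kcnq1 intron, with an exon of the antisense noncoding RNA Kcnq1ot1 inside, had 380 at hour 34 and 300 to 480 otherwise. Nespas, antisense to Gnas, had 2 introns with means of 217 and 353.

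In the authors' deposited table, a JTK rhythm test gave 80 of the 1848 introns (4.33%) an adjusted p under 0.05, and 3.98% of the other tested introns. The q-value in the authors' deposited table was 1 for every selected intron. AK044447 had an adjusted p of 0.00694 and a peak time of 10 h in the authors' deposited table. Kcnj10, higher by night here, had a JTK adjusted p of 0.244 and a peak time of 8.5 h in the authors' deposited table. The Notch3 intron, also higher by night, and the Ralgps1 intron, highest at CT10, were given 8.5 h too. How that time relates to circadian time was not tested.

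At the limit of 50 reads, the introns just inside included those of Kcnj10 and AW146020, each with a mean of 50. Just outside were Tk1, Fam57a and 4930447C04Rik, each with 49.9. Leaving hour 34 out of the mean gave 1846 introns in place of 1848, of which 1820 were in both sets.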

How the data were processed

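Strand-preserving polyadenylated RNA libraries of the mouse SCN were used, 8 in all. STAR 2.3.0e and mm9 are named in the submitters' processing notes, and the deposited tables hold read counts per gene, exon and intron on each strand. How reads were counted, with which strand setting, and how column totals were made equal is not given in the sources used here. Per the file headers, the authors also gave p-values and q-values of a JTK rhythm test and a peak time in hours. Titles give hours 22 to 64, although the labels name CT18 for the start.

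Introns and lists were chosen with earlier results of these data known. Host strand came from GENCODE M21 by gene identifier or name, without its coordinates, and overlap of at least 1 base from the mm9 coordinates of the genes table. The quasi-likelihood F test of edgeR 4.0.16 (R 4.3.3) was applied to these counts, with effective library sizes of the sense genes (TMM factors 0.985 to 1.01), at least 10 reads in at least 2 libraries, and Benjamini-Hochberg adjustment at 0.05 over 8304 introns. Day-night and dusk-dawn terms form a 24-h wave (2 numerator and 5 residual degrees of freedom), and the common biological coefficient of variation was 0.343. Sense gene totals were 11123610 to 11131890 reads. The fit was also run on simulated counts whose spread was set below that of these data. That run therefore does not measure power or false calls here. DESeq2 1.42.0, other scalings, no filter, a cycle term and each library left out were the alternatives.

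Named introns were those past the 24-h threshold, the 10 highest loci, the 5 highest ratios of antisense to sense, the 5 highest and 3 lowest at hour 34, 3 on each side of the limit, and those of 3 lists (clock genes, long noncoding RNAs of brain, imprinted hosts). Overlapping introns were named once by the highest mean. A few introns that this names are not reported here. Others are marked as chosen after their values were seen, which also holds for Kcnj10, AJ308964 and Smap1 over time.

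Marker lists of 8 cell types were read in the sense genes table, and every symbol was found with reads. Summed per library, 14 SCN markers had 13878 to 23526 reads, 7 arcuate markers 231 to 552 and 1219 at hour 34, 6 thalamic and telencephalic markers 212 to 538, 5 choroid plexus markers 390 to 1623, 3 blood markers 702 to 3217, and 2 magnocellular markers 24115 to 34791, with the lowest at hour 34.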

Additional observations from a re-analysis of the deposited data

How the results depend on the processing

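For the 24-h term, 2 introns of the whole table passed with edgeR, 55 with no filter on low counts, 23 with DESeq2, 6 with cycle as a term, and 0 to 4 when 1 library was left out. Among the selected introns these counts were 1, 46, 19, 5 and 0 to 3. Day against night gave 2 selected introns, 31 with no filter, 17 with DESeq2 and 0 to 4 with 1 library left out. Dusk against dawn gave 0 with edgeR, 12 with no filter and 11 with DESeq2. For both terms, shares over all tested introns are given above for edgeR, and for DESeq2 only for dusk against dawn. The other counts have no such share beside them and describe the settings only. Scaling by the antisense introns' own TMM factors or by totals alone left these counts as they were, and the cause of the differences was not tested. No 24-h call among the selected introns was left without hour 22, 46 or 58, and without hour 34 the 1 call was Kcnj10 in place of AK044447. Overlap with an opposite-strand gene was 66.8% of introns of known strand, 45.1% with at least 50% of the intron covered and 57.9% with genes of at least 10 reads. A mean of at least 100 reads left 1135 introns. The precision of every comparison is limited by 2 libraries per circadian time.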

Other observations

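The 119 introns with neither an opposite-strand gene, an exon row inside, an upstream gene end within 10 kb nor a low share of sense reads were led by Kif3a, a kinesin motor subunit of cilia. They are named here after their values were seen. The Kif3a intron at chr11:53416663-53423081 had 938, 984, 871, 1102, 954, 925, 826 and 989 antisense reads from hour 22 to hour 64, beside a mean of 12.0 sense reads, and no library stood apart. Notch3, a receptor of vascular mural cells, had 414, 329, 242, 441, 362, 307, 233 and 437 in its intron at chr17:32261325-32269146. That intron lies inside Gm17276, a gene of unknown strand with a mean of 30.1 reads, so an opposite-strand gene is undecided there. There the 4 night libraries were above the 4 day libraries, and the 24-h term did not pass (edgeR, adjusted p = 0.246). Tmem88b had 594 at hour 34 and 207 to 440 in the other 7.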
